A study of Arabidopsis thaliana with 33 samples.

Results

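Acetylation of histone H3 (H3ac) was compared between hda6 and sant1234-null mutant seedlings of *Arabidopsis thaliana*, site by site and gene by gene. The sites were 22253 pairs of H3ac peaks, 1 from the authors' table of hda6 against wild type and 1 from their table of sant1234-null against wild type, each peak covering at least 50% of the other. They came from 24898 and 24998 peaks. At each pair the measure was the hda6 minus wild-type value less the sant1234-null minus wild-type value. The genes were the 32833 genes of the read tables, of which 32165 had at least 100 reads in both mutants together and 668 were left out.

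The 3 groups were hda6 (a T-DNA insertion line), sant1234-null (quadruple mutants) and wild-type Col-0 (WT), all untreated seedlings 12 days old grown on plates. Chromatin was precipitated with an antibody against acetylated H3 in 3 biological replicates per genotype, each with an input, and these are 18 of the 33 samples of the series. RNA-seq of the same genotypes, 3 replicates each, served as a second readout. The labels do not name the mutated loci of sant1234-null, the insertion in hda6 or its effect on the protein.

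Histone acetylation marks open, transcribed chromatin, and in plants it is concentrated just inside the start of active genes. HDA6 is a histone deacetylase known in Arabidopsis for keeping transposable elements (TEs), ribosomal RNA genes and some genes silent together with DNA methylation. SANT domains occur in many chromatin proteins, and the series title places a transposase-derived protein of the Harbinger type in a complex with HDA6. CG dinucleotides are the positions at which plants maintain the form of DNA methylation tied to HDA6.

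The sequences of 4 of the 5 sites at which the mutants differed by test are shown first, those with the largest differences, because the peak results turn on them. Each is the 300 bases round the centre of the hda6 peak, on the + strand of TAIR10.1 as given by RefSeq, with CG dinucleotides in capitals.
AT2TE09510 peak, chr2:2082273-2082572: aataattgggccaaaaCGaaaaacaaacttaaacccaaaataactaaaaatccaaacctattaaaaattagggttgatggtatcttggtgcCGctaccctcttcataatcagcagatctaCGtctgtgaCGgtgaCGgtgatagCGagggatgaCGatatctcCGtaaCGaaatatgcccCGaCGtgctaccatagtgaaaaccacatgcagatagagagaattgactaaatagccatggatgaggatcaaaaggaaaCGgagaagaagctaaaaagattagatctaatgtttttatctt
AT2G40960 peak, chr2:17095533-17095832: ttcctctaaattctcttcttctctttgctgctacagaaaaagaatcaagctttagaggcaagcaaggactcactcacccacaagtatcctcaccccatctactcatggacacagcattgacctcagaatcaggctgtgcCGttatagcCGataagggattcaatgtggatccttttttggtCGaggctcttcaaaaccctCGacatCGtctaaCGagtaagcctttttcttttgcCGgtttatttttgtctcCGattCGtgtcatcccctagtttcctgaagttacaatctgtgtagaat
AT2G05995 peak, chr2:2325786-2326085: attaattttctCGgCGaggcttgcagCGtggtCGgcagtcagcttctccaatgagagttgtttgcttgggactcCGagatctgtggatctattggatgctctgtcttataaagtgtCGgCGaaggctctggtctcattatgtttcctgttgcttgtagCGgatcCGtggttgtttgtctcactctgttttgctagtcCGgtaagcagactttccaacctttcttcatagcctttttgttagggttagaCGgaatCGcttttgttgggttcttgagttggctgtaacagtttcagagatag
AT5G27330 peak, chr5:9634582-9634881: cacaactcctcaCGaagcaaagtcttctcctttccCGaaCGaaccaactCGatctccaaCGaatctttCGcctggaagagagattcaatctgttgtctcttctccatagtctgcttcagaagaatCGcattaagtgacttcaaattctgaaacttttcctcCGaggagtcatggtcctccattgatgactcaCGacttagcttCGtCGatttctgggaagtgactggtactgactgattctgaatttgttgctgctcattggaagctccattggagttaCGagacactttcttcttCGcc
These windows held 12, 9, 12 and 13 CG dinucleotides in the order shown, beside a median of 14 over all matched peaks. The window of the fifth site, AT5G35760, held 17, with a GC content of 48.7% and the motif GAGAGAGA. The AT2TE09510 window had the lowest GC content of the 4, 39.0%, against a median of 45.0%. The TE itself starts at 2082515, so most of this window lies outside the TE. Of 7 motifs searched on both strands, this window held TGGGCC, which stood in 3.85% of the windows of all matched peaks. It also held TTGAC, as did the window of AT2G40960, a motif of 43.7% of all windows. The window of AT2G05995 held TATAAA, found in 10.8% of all, and that of AT5G27330 held none of the motifs.

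With the error used in the main test, only a few sites separated the mutants. With a normal test and the Benjamini-Hochberg adjustment over the 22253 pairs, 2 sites were higher in hda6 (0.00899% of pairs) and 3 were lower (0.0135%). At an unadjusted p under 0.05 there were 20 higher and 782 lower. In simulated pairs this test found 44% of differences of 2 log2 units and 89% of differences of 4, so many smaller differences were out of its reach. The simulated p-values came from the same errors, so these shares need not hold for the real pairs. There, larger differences also went uncalled, such as -5.56 ± 1.76 (SE) at a second peak of AT2G40960 (adjusted p 0.961 by the normal test). The counts hang on the error assumed and on centring. With 50% of each variance removed, as the 2 tables share the WT libraries, 15 sites were higher and 266 lower. With standard errors from the deposited fold, which the design had named, 93 were higher and 1839 lower. With each table centred on its own median the main test gave 3 higher and 1 lower. Centring with 50% of each variance removed gave 24 higher and 19 lower. Concentrations below are the authors' log2 values, 1 per genotype, in which 0.00 is the lowest value of the tables, so a difference that rests on 0.00 depends on that floor.

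The site with the highest difference lay on chromosome 2 and overlapped AT2TE09510, a TE annotated at 2082515 to 2082737. H3ac there stood at 6.99 in hda6 (WT 6.89) and at 0.00 in sant1234-null (WT 6.98). The level in hda6 was that of WT, and in sant1234-null the signal was at the lowest value. The difference was 7.08 ± 0.981 log2 units (SE), with an adjusted p of 5.93e-09 by the normal test. In the authors' deposited tables the FDR against WT was 0.853 for hda6 and 7.59e-12 for sant1234-null. The TE was listed at 0 FPKM of RNA in hda6, sant1234-null and WT. The site sits in an intergenic stretch with PGR5, a gene of cyclic electron flow in photosynthesis, 364 bp from the peak and ATG8D, an autophagy gene, 271 bp from it. PGR5 had 19.8 RPKM of H3ac in hda6, 22.4 in sant1234-null and 24.0 in WT. ATG8D had 9.03 RPKM in hda6, 8.82 in sant1234-null and 7.79 in WT. Neither neighbour showed the H3ac gap seen at the site, although TEs covered 61.8% of the 100 kb round it. PGR5 RNA was 74.9 FPKM in hda6 (WT 91.9) and 65.2 in sant1234-null (WT 94.0). The sant1234-null value of PGR5 had an adjusted p of 0.00782 in the authors' deposited table. ATG8D RNA was 30.5 FPKM in hda6 (WT 34.2) and 39.0 in sant1234-null (WT 34.9, adjusted p 0.640 there).

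The second site that was higher in hda6 was AT2G05995, a noncoding RNA gene on chromosome 2 (2325776 to 2326876) that lies on the TEs AT2TE10735 and AT2TE10740, which share their coordinates. Its peak had 7.16 in hda6 (WT 6.31) and 2.74 in sant1234-null (WT 6.42). The 2 mutants stood on opposite sides of WT. The difference was 4.53 ± 0.716 (SE), adjusted p 1.87e-06 by the normal test, and the authors' deposited tables gave FDRs of 0.027 for hda6 and 4.15e-07 for sant1234-null. Over the whole gene H3ac was 25.7 RPKM in hda6, 8.65 in sant1234-null and 19.7 in WT, a ratio of hda6 to sant1234-null of 2.97 (95% interval 2.73 to 3.24). RNA of the gene went the same ways. The gene had 3.10 FPKM in hda6 against 1.10 in WT of the same table, and 0 in sant1234-null against 1.12. The authors' deposited tables give adjusted p of 0.0185 for hda6 and 0.000723 for sant1234-null. AT2TE10740 had 1472 FPKM in hda6 against 369 in WT, and 55.5 FPKM in sant1234-null against 519 in WT. AT2TE10735, at the same coordinates, was listed below WT in both mutants. It had 10.1 FPKM in hda6 against 81.8 in WT (not tested by the authors), and 0.000856 FPKM in sant1234-null against 115 in WT. The authors' deposited tables give adjusted p of 0.00023 for the hda6 value of AT2TE10740 and 0.0266 for the sant1234-null value, and the reads of gene and TE cannot be told apart.

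Of the 3 sites that were lower in hda6, AT2G40960 differed most. The gene, on chromosome 2 (17095165 to 17097454), encodes a protein annotated as an R3H single-stranded nucleic acid binding protein. The peak near its start had 1.19 in hda6 (WT 6.71) and 7.08 in sant1234-null (WT 6.79). Here the signal was close to the floor in hda6 and at the WT level in sant1234-null. The difference was -5.81 ± 0.755 (SE), adjusted p 3.14e-10 by the normal test. FDRs in the authors' deposited tables were 5.28e-13 for hda6 and 0.523 for sant1234-null. A second peak of the gene, 569 bp further in, was 0.77 in hda6 (WT 4.75) and 6.44 in sant1234-null (WT 4.86), with FDRs of 0.0614 and 0.00637 in the authors' deposited tables. H3ac over the gene was 9.76 RPKM in hda6, 18.7 in sant1234-null and 14.04 in WT. The RNA of AT2G40960 did not follow its H3ac, with 16.9 FPKM in hda6 against 7.35 in WT (adjusted p 0.000899 in the authors' deposited table). In sant1234-null AT2G40960 had 6.31 FPKM against 7.51 in WT, adjusted p 0.456. Its neighbour AT2G40955 ends just before it on the same strand, 351 bp from the peak, and had 15.8 RPKM of H3ac in hda6, 9.80 in sant1234-null and 9.81 in WT. AT2G40955 RNA was 8.84 FPKM in hda6 against 0.02 in WT and in sant1234-null, a difference that did not pass the authors' deposited test (adjusted p 0.611).

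The other two lower sites had a stronger hda6 signal beside them as well. AT5G27330, a prefoldin chaperone subunit family gene on chromosome 5 (9632703 to 9635174), had a peak of 2.27 in hda6 (WT 5.98) and 6.27 in sant1234-null (WT 6.06). The difference was -3.92 ± 0.872 (SE), adjusted p 0.0306 by the normal test. Some 2095 bp away, in AT5G27340, the hda6 table held a peak of 6.48 in hda6 against 0.00 in WT, with an FDR of 6.65e-08 in the authors' deposited table, and the sant1234-null table held none there. AT5G27340 had 18.3 RPKM in hda6, 8.92 in sant1234-null and 10.3 in WT, and was listed at 0 FPKM of RNA in each of them. AT5G27330 RNA was 7.77 FPKM in hda6 (WT 6.55) and 6.96 FPKM in sant1234-null (WT 6.70). Neither passed the test of the authors' deposited tables, with adjusted p of 0.440 for hda6 and 0.915 for sant1234-null.

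AT5G35760, annotated as a beta-galactosidase related gene on chromosome 5 (13934108 to 13935088), had a peak of 6.55 in hda6 (WT 7.81) and 8.29 in sant1234-null (WT 7.94). The difference was -1.61 ± 0.358 (SE), adjusted p 0.0306 by the normal test. Outside the gene, at a coordinate 1431 bp lower, the hda6 table held a peak of 8.89 in hda6 against 4.13 in WT (FDR 1.54e-44 in the authors' deposited table), with no counterpart in the sant1234-null table. AT5G35760 RNA was 2.49 FPKM in hda6 against 0.289 in WT (adjusted p 0.0125 in the authors' deposited table). It was 0.687 FPKM in sant1234-null against 0.295 in WT (adjusted p 0.249 there). AT5G27330 and AT5G35760 lost their calls when each table was centred on its own median, with adjusted p of 0.170 and 0.856.

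Just outside the threshold were peaks named here after their values were seen. The nearest, in AT5G57610, had 4.70 in hda6 (WT 6.54) and 6.78 in sant1234-null (WT 6.30), a difference of -2.32 with an adjusted p of 0.0748 by the normal test. The next was shared by the overlapping genes MRD1, AT1G07887 and HEI10 on chromosome 1. It had 9.26 in hda6 (WT 9.0) and 3.90 in sant1234-null (WT 9.06), a difference of 5.42 with an adjusted p of 0.0816 by the normal test. MRD1, a gene first described as repressed in a methionine-overproducing mutant, had 51.1 RPKM in hda6, 10.9 in sant1234-null and 45.1 in WT. MRD1 RNA was 28.9 FPKM in hda6 (WT 9.66) and 0.444 FPKM in sant1234-null (WT 9.87), and neither passed the authors' deposited test (adjusted p 0.0859 and 0.207). Because these genes overlap, the values of MRD1 and HEI10, a meiotic crossover gene, are not separate measurements.

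Across all matched pairs the values of hda6 lay lower relative to WT than those of sant1234-null. The hda6 minus WT value had a median of -0.48 and the sant1234-null minus WT value one of -0.15. The difference between them had a median of -0.34 (quartiles -0.66 and -0.11, range -6.71 to 7.08) and was below 0 in 18858 of 22253 pairs. This shift varied with the level of the site. In the 10% of pairs weakest in WT, hda6 minus WT had a median of 0.99, sant1234-null minus WT one of 1.75, and the difference one of -0.83. In the strongest 10%, hda6 minus WT had a median of -0.66, sant1234-null minus WT one of -0.57, and the difference one of -0.10. The WT values of the 2 tables, which describe the same libraries, differed by a median of 0.09, lower in the hda6 table. Over whole genes, RPKM showed almost no shift, with a median log2 ratio of hda6 to sant1234-null of -0.03 (quartiles -0.13 and 0.08). The calls against WT differed in their balance: the authors' deposited tables called 1317 peaks higher (5.29%) and 5613 lower (22.5%) in hda6, against 3802 higher (15.2%) and 3226 lower (12.9%) in sant1234-null.

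The median difference varied with the kind of site. At the 617 matched pairs that touched a TE outside genes the difference had a median of -0.08, at the 21279 in genes -0.34, and at the 357 that touched neither -0.49. Pairs at least 1 log2 unit above the median of all pairs made up 96 of the 617 TE pairs (15.6%) and 176 of the 21279 gene pairs (0.827%), beside 1.29% of all pairs. Pairs at least 1 unit below it were 41 of the TE pairs (6.65%) and 1247 of the gene pairs (5.86%), beside 5.98% of all. These shares were not tested, since the pairs are no replicates.

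**Figure D1:**
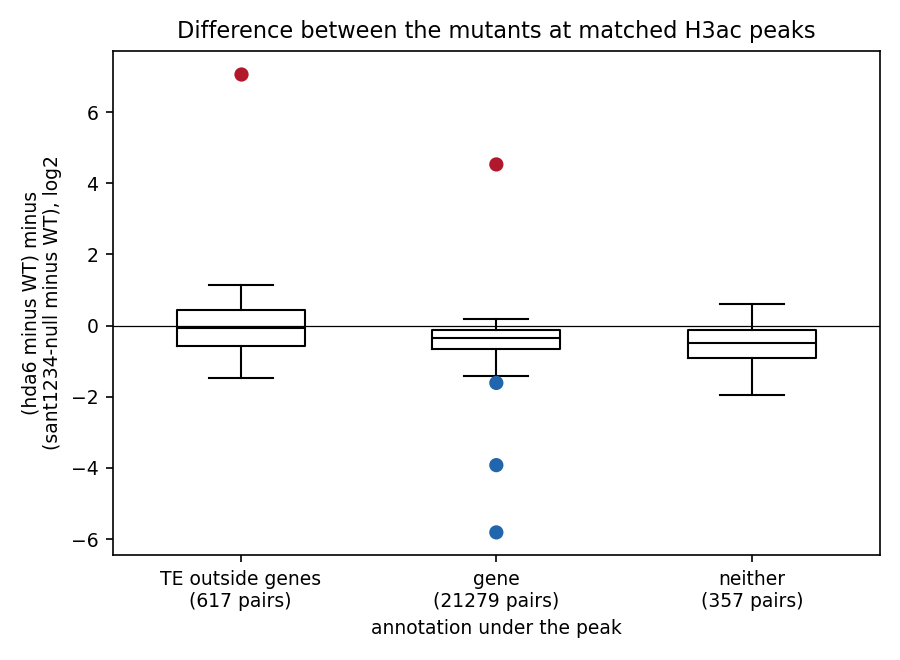
Difference between hda6 and sant1234-null at matched H3ac peaks, each against the WT of its own table, in log2 units on the y axis, for peaks at TEs outside genes, in genes and at neither. Boxes span the quartiles with the median as a line, whiskers run from the 5th to the 95th percentile, and dots are the 5 called sites (red higher in hda6, blue lower). The TE box is centred near 0 and the other two boxes lie below it.

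Many sites had a peak in 1 table and no partner in the other, and there the mutants could be set side by side only as separate comparisons with WT. There were 2645 such peaks for hda6 and 2745 for sant1234-null. Of these, the authors' deposited tables called 453 higher than WT in hda6 and 1250 higher than WT in sant1234-null. The 453 hda6 peaks had a median of 6.19 in hda6 against 2.1 in WT, and the 1250 sant1234-null peaks one of 6.06 in sant1234-null against 2.30 in WT. No overlap of any length with a peak of the other table was found for 399 of the 453 and 1120 of the 1250. A missing partner is not a test between the mutants, since a weak site may fail to be listed and a gene or TE may hold peaks at different places in the 2 tables.

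Each set is described first by where it lay. Of the 453 hda6 peaks, 245 were in genes (54.1%), 135 touched a TE outside genes (29.8%) and 73 touched neither. Of the 1250 sant1234-null peaks, 1142 were in genes (91.4%), 54 touched a TE outside genes (4.32%) and 54 neither. Among all matched peaks 95.6% were in genes and 2.77% at TEs outside genes. TEs covered at least 50% of the surrounding 100 kb for 23.6% of the hda6 peaks, 3.04% of the sant1234-null peaks and 3.49% of all matched peaks. Among all 2645 unpaired hda6 peaks, called or not, 31.4% touched a TE outside genes and 25.5% lay in such TE-dense stretches, so the shares of the called ones are near those of unpaired hda6 peaks as a whole. Among all 2745 unpaired sant1234-null peaks the shares were 5.94% and 4.77%.

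Distance from gene starts was measured next. The centre fell within the first 500 bp past the nearest gene start for 22.1% of the hda6 peaks and 33.4% of the sant1234-null peaks, beside 51.7% of all matched peaks. Among all unpaired peaks this share was lower, 13.2% for hda6 and 25.2% for sant1234-null. The centre was over 1000 bp from any gene start for 56.5% of the hda6 peaks, 37.2% of the sant1234-null peaks and 22.0% of the matched peaks. The 257 genes under the hda6 peaks were often silent, 117 of them being listed at 0 FPKM in WT (45.5%). This was so for 291 of the 1142 genes under the sant1234-null peaks (25.5%), for 5.35% of genes under matched peaks and for 25.2% of all genes with enough reads. Noncoding genes made up 16.3% of the first, 4.73% of the second, 5.18% of the genes under matched peaks and 14.01% of all genes with enough reads.

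**Figure D2:**
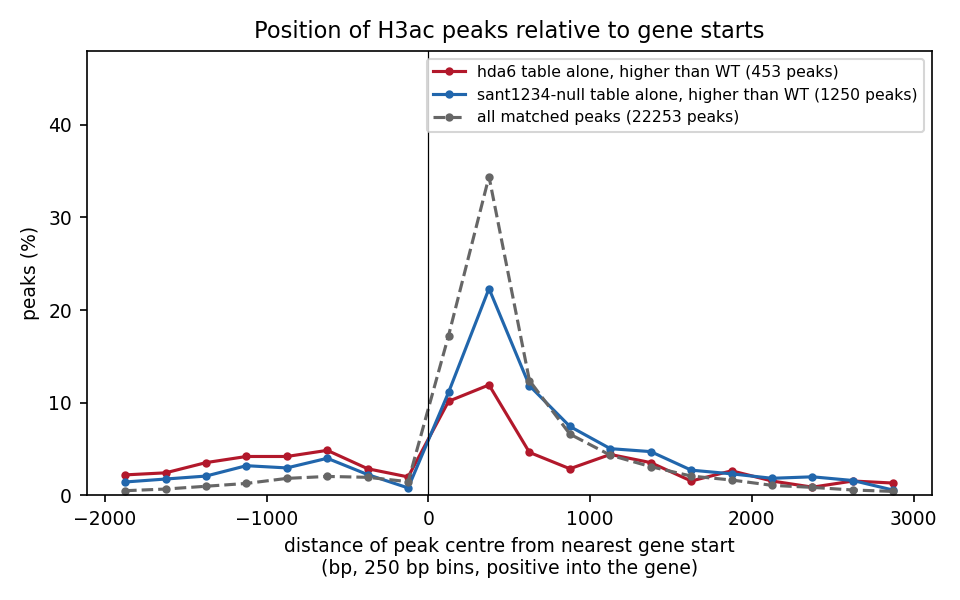
Share of H3ac peaks (y axis, percent) by distance of the peak centre from the nearest gene start (x axis, bp, 250 bp bins, positive into the gene) for the 453 hda6 peaks and 1250 sant1234-null peaks without a partner that were called higher than WT, and for all 22253 matched peaks. Matched peaks pile up just inside the gene start, with 51.7% in the first 500 bp, while 22.1% of the hda6 peaks and 33.4% of the sant1234-null peaks fall there.

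In sequence the 2 sets were alike in GC content and sparser in CG dinucleotides than the matched peaks. Median GC content over 300 bases was 43.7% for the hda6 peaks, 43.3% for the sant1234-null peaks and 45.0% for matched peaks. The median count of CG dinucleotides was 12 for the hda6 peaks, 10 for the sant1234-null peaks and 14 for matched peaks. The median ratio of observed to expected CG was 0.814 for the hda6 peaks, 0.739 for the sant1234-null peaks and 0.945 for matched peaks. Among all unpaired peaks, called or not, the median count was 10 for hda6 and 10 for sant1234-null, with ratios of 0.705 and 0.703. Fewer CG than in matched peaks was thus a trait of unpaired peaks as a whole. AAACCCTA, the core of the telo-box motif of plant promoters, stood in 9.05% of the hda6 windows, 1.76% of the sant1234-null windows and 8.2% of the matched ones. GAGAGAGA, a GA repeat, stood in 9.05% of the hda6 windows, 4.64% of the sant1234-null windows and 10.01% of the matched ones. Among all unpaired peaks AAACCCTA stood in 3.89% of the windows for hda6 and 2.22% for sant1234-null, and GAGAGAGA in 4.88% and 4.81%. CACGTG, the G-box, stood in 2.43% of the hda6 windows, 3.76% of the sant1234-null windows and 4.53% of the matched ones. For TTGAC, the core of the W-box, these shares were 41.7% for hda6, 48.5% for sant1234-null and 43.7% for matched peaks. For TATAAA they were 11.7% for hda6, 12.8% for sant1234-null and 10.8% for matched peaks. TGGGCC and CGCGTT stood in 3.53% and 3.31% of the hda6 windows, in 2.96% and 4.16% of the sant1234-null windows, and in 3.85% and 5.89% of the matched ones.

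Named sites show what the hda6 set holds. They are among the lowest FDRs of the authors' deposited tables. AT3G01345, an uncharacterized protein-coding gene, had a peak of 9.10 in hda6 against 3.81 in WT (FDR 5.25e-46 in the authors' deposited table). AT3G01345 had 41.7 RPKM in hda6, 9.47 in sant1234-null and 10.5 in WT, and RNA of 104 FPKM in hda6 against 0.035 in WT, which did not pass the authors' deposited test (adjusted p 0.613). At the TE AT5TE08220 the peak was 8.09 in hda6 against 4.66 in WT, with RNA of 1630 FPKM in hda6 against 1.99 in WT (adjusted p 0.0396 in the authors' deposited table). In sant1234-null AT5TE08220 had 2.4 FPKM against 2.79 in WT. At AT4TE32185 H3ac was 9.70 in hda6 against 0.00 in WT, and its RNA of 9291 FPKM in hda6 against 15.8 in WT did not pass the authors' deposited test (adjusted p 0.161). AT4TE32185 was listed at 0 FPKM in sant1234-null.

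The sant1234-null peaks with the lowest FDRs include protein-coding genes and a TE. CRK23 (AT4G23310), a cysteine-rich receptor-like kinase gene, had a peak of 8.61 in sant1234-null against 5.11 in WT (FDR 1.71e-31 in the authors' deposited table). CRK23 also had an unpaired peak at another place in the hda6 table, with 7.68 in hda6 against 5.73 in WT (FDR 1.6e-08 in the authors' deposited table), and so was called higher in both mutants. LRX2, a cell wall protein gene of the extensin type, had 8.76 in sant1234-null against 6.34 in WT (FDR 3.64e-17 in the authors' deposited table), and another peak of LRX2 in the hda6 table had 7.69 in hda6 against 7.43 in WT (FDR 0.44 there). SBT1.2, a subtilase of stomatal patterning, had 7.49 in sant1234-null against 4.25 in WT (FDR 4.13e-16 in the authors' deposited table), and another peak of SBT1.2 in the hda6 table had 6.23 in hda6 against 4.88 in WT (FDR 0.0686 there). The TE AT3TE44000 had a peak of 8.67 in sant1234-null against 0.00 in WT. An unpaired peak of the hda6 table overlapped that peak in part, with 7.99 in hda6 against 4.88 in WT (FDR 2.03e-14 in the authors' deposited table), so AT3TE44000 had a peak called higher than WT in both mutants. Its RNA was 11.2 FPKM in hda6 and 116 FPKM in sant1234-null, each against 0 in WT (not tested by the authors).

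RNA, which played no part in choosing these sites, was set beside them, counted over all genes under the peaks. Of the 257 genes under the hda6 peaks, 128 were above 1 FPKM in hda6 (49.8%), 80 in sant1234-null (31.1%) and 62 in WT (24.1%). Of the 1142 genes under the sant1234-null peaks, 507 were above 1 FPKM in hda6 (44.4%), 549 in sant1234-null (48.1%) and 465 in WT (40.7%). The RNA tables of the 2 mutants were made separately, and in the WT of the sant1234-null table these WT counts were 62 and 467. Over all 32833 genes, 61.5% were above 1 FPKM in hda6, 61.5% in sant1234-null and 59.95% in WT.

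Calls are given for genes that the authors tested in both mutants, since many genes have a test in 1 mutant only. Among all 21087 such genes, 6.78% were called higher than WT in hda6 and 9.01% in sant1234-null in the authors' deposited tables. Under the hda6 peaks 76 genes were tested in both, of which 24 were called higher in hda6 (31.6%) and 20 in sant1234-null (26.3%). Under the sant1234-null peaks 590 were tested in both, of which 71 were called higher in hda6 (12.0%) and 122 in sant1234-null (20.7%). Under all matched peaks the shares of 16631 genes were 6.80% in hda6 and 9.11% in sant1234-null. Whether the share in 1 mutant differs from that in the other was not tested, and both mutants share the WT libraries.

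The same count over all members was made for TE RNA. Of the 165 TEs under the hda6 peaks, 109 were above 1 FPKM in hda6, 37 in sant1234-null and 28 in WT of either table. Of the 61 TEs under the sant1234-null peaks, 21 were above 1 FPKM in hda6, 25 in sant1234-null and 21 in WT. Over all 31189 TEs, 2147 were above 1 FPKM in hda6, 1283 in sant1234-null and 1251 in WT of the hda6 table. Reads that match several TE copies make single TE values uncertain.

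**Figure D3:**
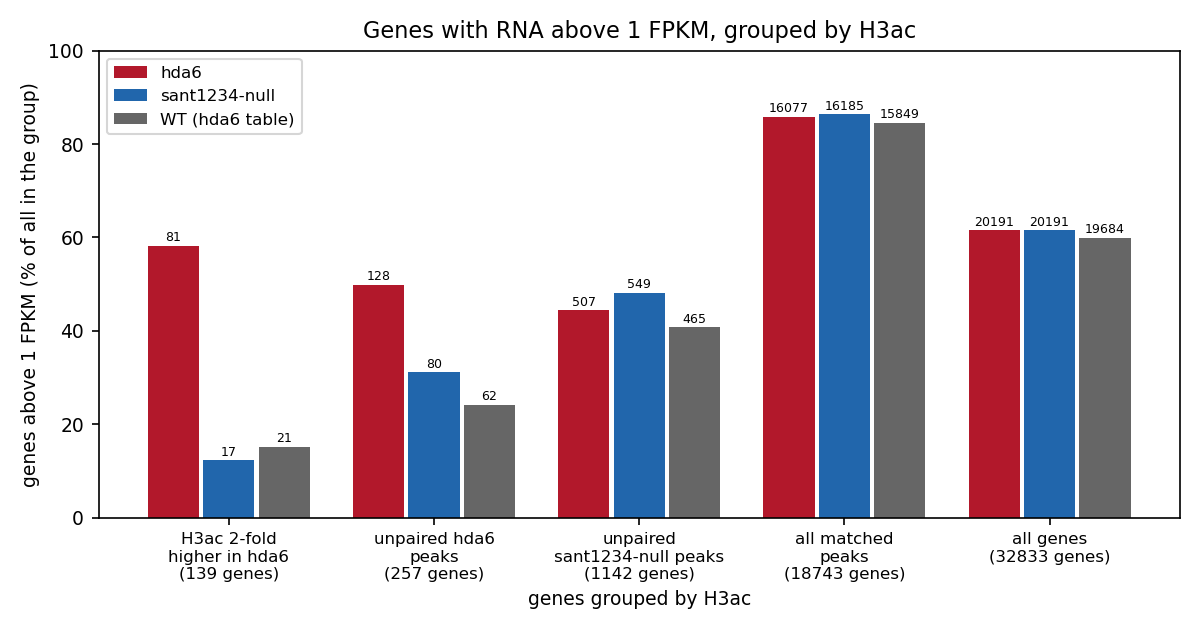
Share of all genes of a group with RNA above 1 FPKM (y axis, percent) in hda6 (red), sant1234-null (blue) and WT of the hda6 table (grey), for genes grouped by H3ac (x axis), with the number of genes above each bar. The hda6 bar stands well above the others for the 139 genes with 2-fold more H3ac in hda6 (81 genes in hda6, 17 in sant1234-null, 21 in WT) and for the 257 genes under unpaired hda6 peaks (128 in hda6, 80 in sant1234-null, 62 in WT), and the 3 bars are close in the other groups.

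Reads over whole genes gave a one-sided picture at the 2-fold threshold. Of the 32165 genes with enough reads, 139 had at least 2-fold more H3ac in hda6 than in sant1234-null (0.432%) and 10 had at least 2-fold less (0.0311%), on the scale of log2(RPKM + 1). At a fold of 1.5 the counts were less uneven, 452 higher and 316 lower in hda6. There is 1 value per genotype and so no test, and the intervals given for ratios cover counting error only. The 139 genes had median levels of 28.4 RPKM in hda6, 8.96 in sant1234-null and 9.99 in WT. For 101 of them hda6 was at least 2-fold over WT, for 10 sant1234-null was at least 2-fold under WT, and for 28 neither held. In 122 of the 139, sant1234-null was within 1.5-fold of WT. Nearest the threshold were AT3G49230 with a log2 ratio of 1.02 and AT3G06335 with 0.99.

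The 139 include 19 of 133 plastid genes and 1 of 151 mitochondrial genes. Plastid reads took 0.792% of gene reads in hda6, 0.492% in sant1234-null and 1.46% in WT, and the part of this share in the plastid result was not tested. The remaining 119 are nuclear. They comprised 73 protein-coding genes, 48 of them annotated only as uncharacterized, and 46 noncoding genes. Their annotated length was short, with a median of 540 bp over the 139 genes against 1848 bp over all 32165. TEs covered at least 50% of the surrounding 100 kb for 43 of the 119 (36.1%), against 3.70% of all nuclear genes, but 13.7% of the 139 overlapped a TE themselves, against 13.1% of all. Of the genes with enough reads, the 119 made up 31 of 5072 on chromosome 2 (0.611%) and 35 of 6307 on chromosome 3 (0.555%). They made up 23 of 8490 on chromosome 1 (0.271%), 16 of 4823 on chromosome 4 (0.332%) and 14 of 7189 on chromosome 5 (0.195%).

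**Figure D4:**
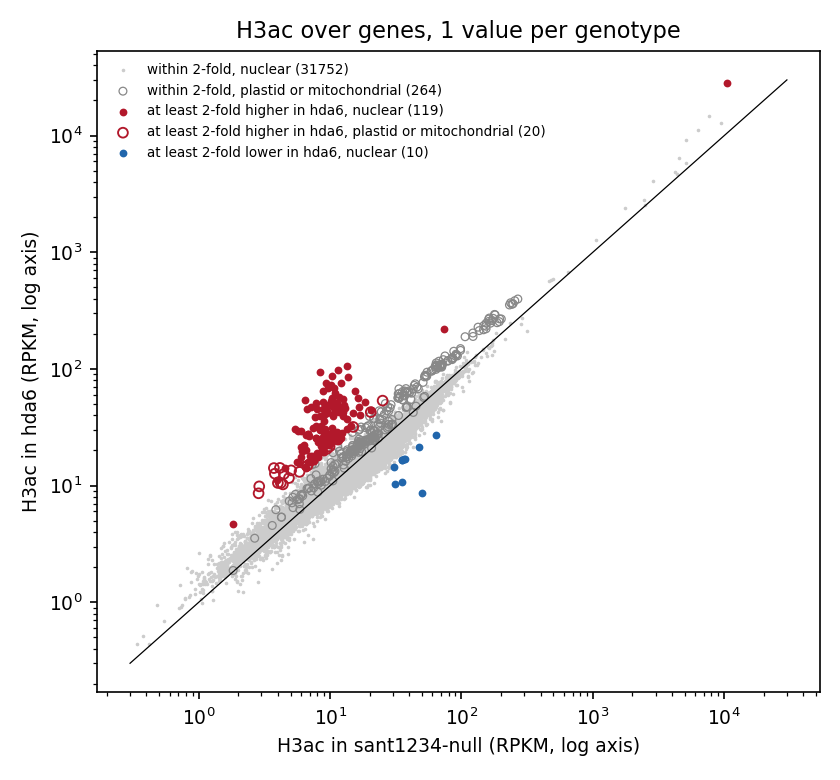
H3ac over each gene in hda6 (y axis, RPKM, log axis) against sant1234-null (x axis, RPKM, log axis), 1 dot per gene. Red dots are at least 2-fold higher in hda6 (119 nuclear genes filled, 20 plastid or mitochondrial genes open), blue dots at least 2-fold lower (10), grey the rest, and the line marks equal values. The nuclear red dots are spread over low and middling sant1234-null levels.

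RNA was counted over all of these genes. Of the 119 nuclear genes, 80 were listed at 0 FPKM in WT, and 76 were above 1 FPKM in hda6, 11 in sant1234-null and 13 in WT. Over all 32165 genes with enough reads, 25.2% were listed at 0 FPKM in WT. Over all 32833 genes, 61.5% were above 1 FPKM in hda6, 61.5% in sant1234-null and 59.95% in WT. Of the 139 genes, 85 have an RNA test in hda6 and 22 in sant1234-null in the authors' deposited tables, so counts of calls over all of them are not comparable. Of the 22, all tested in both mutants, 9 were called higher than WT in hda6 and 1 in sant1234-null. Among all 21087 genes tested in both, these shares were 6.78% in hda6 and 9.01% in sant1234-null. Peaks that were called higher in hda6 and had no partner lay on 81 of the 119, against 257 of all 32165 genes with enough reads. These genes and peaks were both taken from the hda6 ChIP libraries, so the overlap is no separate evidence.

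The 6 genes with the largest ratios were AT4G07965, AT5G03090, AT3G28899, AT3G06955, AT2G01422 and AT1G32225. AT4G07965, an uncharacterized protein-coding gene on chromosome 4 (4808635 to 4809352), had 93.6 RPKM in hda6, 8.42 in sant1234-null and 9.82 in WT, a ratio of hda6 to sant1234-null of 11.1 (95% interval 10.12 to 12.2). RNA of AT4G07965 was 7.01 FPKM in hda6 and 0 in sant1234-null and WT (adjusted p 0.000899 for hda6 in the authors' deposited table). AT5G03090, annotated as an Mto 1 responding down protein like MRD1, had 97.8 RPKM in hda6, 11.4 in sant1234-null and 12.0 in WT, a ratio of 8.57 (7.89 to 9.34), and 93.1 FPKM of RNA in hda6 against 0 in the others. AT3G06955, a long noncoding RNA gene, had 107 RPKM in hda6, 13.4 in sant1234-null and 16.4 in WT, with 79.5 FPKM of RNA in hda6 alone. The noncoding gene AT2G01422 had 54.1 RPKM in hda6, 6.41 in sant1234-null and 7.23 in WT, and 138 FPKM of RNA in hda6 against 0.713 in WT, which did not pass the authors' deposited test (adjusted p 0.604). AT3G28899 had 86.2 RPKM in hda6, 10.3 in sant1234-null and 15.2 in WT, and AT1G32225 had 75.6 RPKM in hda6, 9.37 in sant1234-null and 12.3 in WT. In all 6, hda6 stood far above WT while sant1234-null lay near WT, with a somewhat lower value. The 95% counting intervals of sant1234-null and WT overlapped for AT4G07965, AT5G03090, AT3G06955 and AT2G01422.

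**Figure D5:**
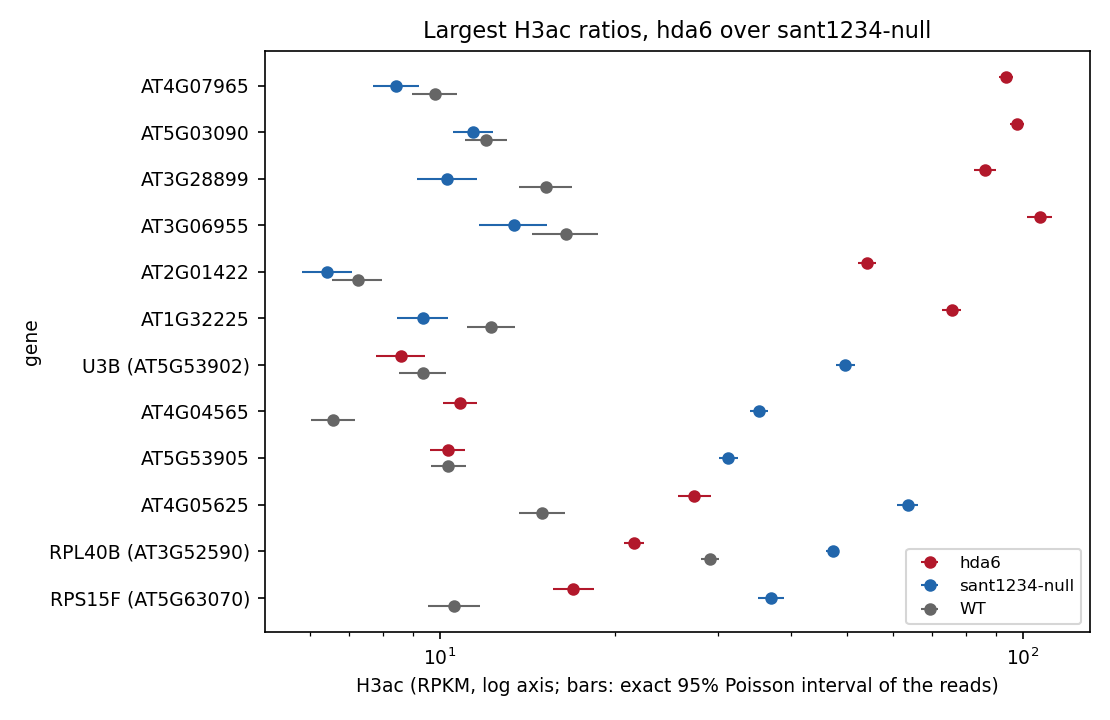
H3ac (x axis, RPKM, log axis) of the 6 genes with the highest and the 6 with the lowest ratio of hda6 to sant1234-null, in hda6 (red), sant1234-null (blue) and WT (grey). Bars are exact 95% Poisson intervals of the reads, counting error only. In the upper 6 genes hda6 stands apart (54.1 to 107 RPKM) and sant1234-null lies beside WT, and in most of the lower 6 sant1234-null stands apart.

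Some annotated families recurred among the 139, seen only after the values were known, beside 0.432% of all genes. Of 17 genes annotated as beta-galactosidase related or like, 4 were at least 2-fold higher in hda6 and none at least 2-fold lower. AT5G35760, among the 17, went the other way, with a log2 ratio of -0.69 and a called peak lower in hda6. Of 4 genes annotated as a transcription repressor 3 were at least 2-fold higher in hda6, and of 45 annotated as a glycine-rich protein 3 were. AT3G44265 had 50.8 RPKM in hda6, 11.2 in sant1234-null and 11.2 in WT, and 35.0 FPKM of RNA in hda6 against 0 in the others. AT4G29200 had 29.1 RPKM in hda6, 5.66 in sant1234-null and 6.42 in WT. Among the transcription repressor genes AT3G54730 had 50.7 RPKM in hda6, 7.83 in sant1234-null and 8.40 in WT. AT4G04030, an ovate family gene, had 51.5 RPKM in hda6, 8.77 in sant1234-null and 9.24 in WT, with 55.6 FPKM of RNA in hda6 against 0 in WT.

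The 10 genes with less H3ac in hda6 stand for 8 separate places, and in 8 of the 10 sant1234-null was at least 2-fold over WT. U3B, a U3 small nucleolar RNA gene, had 8.58 RPKM in hda6, 49.6 in sant1234-null and 9.35 in WT, a ratio of hda6 to sant1234-null of 0.173 (95% interval 0.156 to 0.192). It overlaps AT5G53905, annotated as prolamin-like, with 10.3 RPKM in hda6, 31.2 in sant1234-null and 10.3 in WT. The long noncoding RNA gene AT4G04565 had 10.8 RPKM in hda6, 35.3 in sant1234-null and 6.57 in WT. AT4G05625, also a long noncoding RNA gene, had 27.3 RPKM in hda6, 63.4 in sant1234-null and 15.0 in WT, and its peak, which also covers AT4G08867 and AT4G08869, was 6.57 in hda6 against 5.44 in WT and 8.50 in sant1234-null against 5.69 in WT. The authors' deposited tables called it higher in both, with FDRs of 0.016 for hda6 and 2.19e-21 for sant1234-null. The difference of the matched pair, -1.68, did not pass the normal test (adjusted p 0.583). RPL40B, a ubiquitin and ribosomal protein fusion gene, had 21.5 RPKM in hda6, 47.2 in sant1234-null and 29.1 in WT. RPS15F, a ribosomal protein gene, had 16.9 RPKM in hda6, 37.0 in sant1234-null and 10.6 in WT. In sant1234-null, 2 of the 10 could be tested for RNA, and none was called higher. RPL40B was called lower, with 235 FPKM in sant1234-null against 322 in WT (adjusted p 0.0422 in the authors' deposited table), while its H3ac was higher there. The reads of close copies of U3B, RPL40B and RPS15F may have been shared among them. Next to the threshold lay AT3G14030 with a log2 ratio of -1.05 and AT3G04330 with -0.98.

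In 10 of the 139 genes it was sant1234-null that stood apart, at least 2-fold under WT. Of these, 7 are nuclear. Besides MRD1, AT1G07887, HEI10 and AT2G05995 they include AT2G08735, a long noncoding RNA gene with 55.5 RPKM in hda6, 12.4 in sant1234-null and 53.6 in WT. AT2G08735 RNA was 5.36 FPKM in hda6 (WT 4.46) and 0.616 FPKM in sant1234-null (WT 4.56), the second with an adjusted p of 0.0509 in the authors' deposited table. AT3G08585, another long noncoding RNA gene, had 27.6 RPKM in hda6, 6.75 in sant1234-null and 15.5 in WT, so that both mutants were away from WT. The seventh is AT1G09040, one of the SANT loci described next.

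The genes of the complex themselves separated the mutants in one place. The 4 loci taken here as the SANT loci are from general knowledge and not from the labels. AT1G09040 had 11.2 RPKM in hda6, 3.97 in sant1234-null and 10.05 in WT, a ratio of hda6 to sant1234-null of 2.82 (95% interval 2.65 to 3.01), and RNA of 2.99 FPKM in hda6 (WT 1.71) and 0.018 FPKM in sant1234-null (WT 1.75). A peak at one end of AT1G09040, in the sant1234-null table alone, nevertheless had 6.31 in sant1234-null against 4.23 in WT (FDR 0.00297 in the authors' deposited table). AT1G09050 had 11.4 RPKM in hda6, 6.26 in sant1234-null and 10.9 in WT. AT2G47820 and AT1G55050 went the other way, with 14.3 RPKM in hda6, 23.4 in sant1234-null and 12.9 in WT for AT2G47820. AT1G55050 had 9.82 RPKM in hda6, 19.2 in sant1234-null and 6.80 in WT, and a peak of 7.31 in sant1234-null against 0.00 in WT (FDR 9.53e-13 in the authors' deposited table). RNA of AT1G55050 was 1.59 FPKM in hda6 against 0.201 in WT and 0.286 FPKM in sant1234-null against 0.205.

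HDA6 had 15.5 RPKM in hda6, 15.5 in sant1234-null and 20.4 in WT. HDA6 RNA was 18.8 FPKM in hda6 (WT 17.0), which does not show where the insertion lies. AT5G12010, annotated as a nuclease and taken here as the Harbinger-derived locus, had 42.6 RPKM in hda6, 45.7 in sant1234-null and 66.9 in WT. MBD1, MBD2 and MBD4, genes of methyl-CpG-binding-domain proteins, had 12.5, 8.19 and 17.0 RPKM in hda6 and 13.5, 7.78 and 18.4 RPKM in sant1234-null.

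Among genes known to be kept silent by DNA methylation, QQS stood well over WT in hda6 alone, while FWA and SDC were over WT in both mutants by RPKM. QQS, an orphan gene of starch metabolism, had 15.8 RPKM in hda6, 5.58 in sant1234-null and 5.21 in WT, a ratio of hda6 to sant1234-null of 2.84 (95% interval 2.52 to 3.20). Its peak in the hda6 table had 6.16 in hda6 against 0.73 in WT (FDR 2.91e-07 in the authors' deposited table), and QQS RNA was 139 FPKM in hda6 (WT 4.08) and 3.05 FPKM in sant1234-null (WT 4.17). FWA, an imprinted homeobox gene listed as HDG6, had 9.10 RPKM in hda6, 9.61 in sant1234-null and 6.38 in WT, and a peak in the sant1234-null table alone of 6.33 against 3.41 in WT (FDR 1.37e-04 in the authors' deposited table). SDC, an F-box gene, had 11.5 RPKM in hda6, 16.9 in sant1234-null and 7.74 in WT. Standing over WT in both mutants was common at such levels. In the decile of nuclear genes with a median of 7.15 RPKM in WT, the medians were 8.79 in hda6 and 8.55 in sant1234-null. Neither FWA nor SDC was called changed in RNA in either mutant in the authors' deposited tables. SDC had a matched peak of 6.11 in hda6 (WT 4.61) and 7.51 in sant1234-null (WT 4.86). Its difference of -1.15 did not pass the test.

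Other gene groups are given by list. Across 17 lists with 222 entries, AT1G09040 and QQS were the members at least 2-fold apart in RPKM. No member had a called matched peak, which says little where 5 of 22253 pairs were called in all. The matched peaks of the jasmonate list reached a difference of -4.78, those of the floral promoters -3.41 and those of the photosynthesis list -2.62, none of them past the test. The median difference was -1.08 for 5 matched peaks of seed maturation genes and -0.75 for 9 of floral promoters, beside -0.34 over all pairs. List medians of the log2 ratio of hda6 to sant1234-null ran from -0.25 for 6 heat shock genes to 0.19 for 9 floral organ identity genes, beside -0.03 over all genes. The median was 0.03 for 15 floral repressors, -0.01 for 13 floral promoters, 0.05 for 24 genes of DNA methylation and silencing, -0.01 for 16 histone deacetylases, -0.22 for 14 jasmonate genes and -0.08 for 18 genes of salicylate defence. Among all 32165 genes with enough reads, peaks without a partner that were called higher than WT lay on 257 in hda6 and 1142 in sant1234-null. Among list members they lay on QQS and PBS3, a gene of salicylate synthesis, in hda6. In sant1234-null they lay on AT1G09040, AT1G55050, FWA and PBS3, on the Argonaute genes AGO5, AGO6 and AGO9, on the deacetylase genes HDA10, HDA17 and HDA18, on the floral promoter SPL9 and on the acetyltransferase gene HAF2. The seed genes CRC and SESA1 and the root genes LRX1 and PHO1 also had one there.

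The ribosomal RNA genes had very high H3ac read levels. The 18S gene AT2G01010 had 4060 RPKM in hda6, 2848 in sant1234-null and 3287 in WT. The second 18S gene, AT3G41768, had 6473 RPKM in hda6, 4556 in sant1234-null and 5197 in WT. The 5.8S gene AT3G41979 had 11103 RPKM in hda6, 6276 in sant1234-null and 7128 in WT. At each of them hda6 was over WT and sant1234-null under it. These genes exist in many copies, no input was subtracted, and so a change in H3ac and a change in copy number cannot be told apart.

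Depth was similar in the 3 genotypes. Reads over genes summed to 68093284 in hda6, 78316244 in sant1234-null and 69959151 in WT, which sets the counting error. Seedling identity was checked on WT RNA, where 19 of 20 leaf photosynthesis genes, 11 of 12 root markers, 1 of 9 floral organ genes and none of 15 seed maturation genes were above 1 FPKM. In whole seedlings, fewer cells carrying a mark and a weaker mark per cell cannot be told apart.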

How the data were processed

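H3ac ChIP-seq and RNA-seq were analysed from tables with 1 value per genotype. The submitters' processing notes name Bowtie2 2.4.1, TopHat2 2.0.12, MACS2 2.1.1.20160309, bedtools, DiffBind, Cuffdiff, Cufflinks 2.2.1 and CASAVA without roles, and TAIR10 as the build. Settings and strand were not given in the sources used here. The deposited gene tables hold read counts per gene and the authors' RPKM (reads per kilobase and per mapped reads), from which no input was subtracted. The deposited peak tables hold log2 concentrations and log2 folds of mutant over WT, with a p-value and an FDR, a DiffBind layout per the file headers. The deposited RNA tables hold FPKM with p-values and q-values (adjusted p), in the layout of Cuffdiff per the file headers. Tests on FPKM stayed within 1 table. Depth of the RNA libraries is unknown.

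Peaks were paired where each covered at least 50% of the other; 24886 of the hda6 peaks and 24989 of the sant1234-null peaks are 401 bp wide. The standard error of each table's value was its concentration difference over the normal quantile of the deposited p, or the median of peaks of like concentration (20 bins) where p was 0.5 or more. The design had named the deposited fold for this, but that fold is shrunken at weak peaks and so on another scale; its result is given among the alternatives. Variances were summed, which is too large as the WT libraries are shared. Pairs were called at an adjusted p under 0.05. Genes were called at 2-fold on log2(RPKM + 1) (low genes change by more than this scale shows). Intervals are exact 95% Poisson (counts) and Clopper-Pearson (ratios) and cover counting error only. A gene or TE was under a peak with 1 bp shared. The test was tried on simulated data with no false call among the unchanged pairs. The simulated errors were normal, their p-values came from the same variance, and the summed variances were too large. Few false calls could arise there, so this does not show how often calls on the real values are false. Nor does it show what share of real differences is found.

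Named are the called sites, the 6 genes with the largest ratio in each direction and the loci of the complex; others were chosen after their values were seen. Members, lists and motifs were chosen with earlier results of these data known. Alternatives tried were centring, other overlaps, standard errors, pseudocounts, read minimums and folds. Input libraries were not analysed here. Analyses used Python 3.11.15, pandas 2.3.3, numpy 2.4.6 and scipy 1.17.1.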

Additional observations from a re-analysis of the deposited data

Results flagged for a closer look

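The 5 called sites are listed because the effect of hda6 and the effect of sant1234-null on the same peak differed by the normal test of the difference itself. At AT2TE09510 the difference was 7.08 log2 units, with hda6 at the WT level and sant1234-null at 0.00. At AT2G05995 it was 4.53, with hda6 over WT and sant1234-null under it. At AT2G40960 it was -5.81, with hda6 under WT and sant1234-null near it. At AT5G27330 it was -3.92 and at AT5G35760 it was -1.61, with hda6 under WT and sant1234-null near it in both.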

How the results depend on the processing

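The call of 2 sites higher and 3 lower in hda6 stayed within 1.5 times of these counts with an overlap of at least 80%, without the peaks of lowest concentration and with a difference of at least 1 log2 unit added. The lower count was 1 with each table centred on its own median, 1 at an adjusted p under 0.01 and 5 with an overlap of 1 bp. With the median standard error of like peaks there were 7 higher and 6 lower, and with 50% of each variance removed as shared WT 15 higher and 266 lower. Standard errors from the deposited fold, which the design had named and the main test replaced, gave 93 higher and 1839 lower. In an alternative chosen after seeing the data, 50% of the variance removed with centring gave 24 higher and 19 lower. The number of lower sites therefore depends on the error assumed and on the centring. Centring left a median difference of -0.01. The share of higher sites at a TE outside genes was 50% in the main test, 33.3% when centred, and 0% when a TE had to cover 50% of the peak. For genes, a pseudocount of 0.1 gave 16 lower, a pseudocount of 5 gave 90 higher and 4 lower, and a fold of 1.5 gave 452 higher and 316 lower. Leaving out plastid and mitochondrial genes, also added after seeing the data, gave 119 higher and 10 lower. Of 50 other values of single sites 46 kept their call and 4 lost it, and of 80 gene ratios 59 moved by less than 0.1 log2 units. No single site or gene ratio changed sign. Lower calls outnumbered higher ones in the main test, but higher ones outnumbered lower ones when centred, with the median standard error, and with centring and less variance together. No paired analysis was possible because the tables hold 1 value per genotype, and for the same reason no replicate could be left out.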
